A study of Homo sapiens with 6 samples.

Results

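The canonical TGF-beta pathway genes examined here are 3 ligands (TGFB1, TGFB2 and TGFB3), 2 receptors (TGFBR1 and TGFBR2) and 4 SMADs (SMAD2, SMAD3, SMAD4 and SMAD7), 9 of the 30726 genes in the expression table. They were taken by symbol, and they were selected on a pathway whose values in these libraries were already known, so their levels and their responses to hypoxia are given as a description. Where a fit across all genes is mentioned, the count of these genes that pass it is no evidence about them. RNA was sequenced from the polysome fraction, that is, from sucrose-gradient fractions of messages carrying several ribosomes, in 3 human breast cancer cell lines labelled wild type: the triple negative line SUM1315, the luminal, HER2-positive line SKBR3 and the luminal A line T47D. Each line gave 1 library from cells held for 8 hours at 1% oxygen (hypoxia) and 1 from cells at 21% oxygen (normoxia), 6 libraries in all. Each line was grown in its own medium, with EGF in that of SUM1315 alone and insulin in those of SUM1315 and T47D, so differences between lines cannot be told apart from differences between media. All cells received cycloheximide, which freezes ribosomes on the message, before lysis. Polysomal RNA reflects both how much of a message a cell holds and how much of it is on ribosomes, and these cannot be told apart here, nor can fewer cells expressing a gene be told apart from less RNA per cell.

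TGF-beta ligands are secreted as latent dimers and, once released, bring together a type II receptor (TGFBR2) and a type I receptor (TGFBR1), both serine/threonine kinases. TGFBR2 binds the ligand and phosphorylates TGFBR1, which phosphorylates SMAD2 and SMAD3; these join SMAD4 and enter the nucleus to act on target genes, while SMAD7 is an inhibitory SMAD that blocks the receptor and is itself induced by the pathway. In breast epithelium the pathway restrains proliferation, and in carcinoma it is known for its link to epithelial-mesenchymal transition and metastasis.

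Values are RPKM, a read count scaled to transcript length and library size, so levels may be compared between genes. One RPKM on a 1-kb transcript corresponded to between 21.7 and 33.4 reads, by the steps between low values, and 3 reads on 1 kb to between 0.0898 and 0.138 RPKM. The line markers were high where the labels put them: VIM, AXL, CD44 and CAV1 summed to between 962 and 1760 RPKM in SUM1315 and at most 13.1 elsewhere, ERBB2 and 3 genes beside it to between 1070 and 1170 in SKBR3 and at most 65.0 elsewhere, and ESR1, PGR, GATA3 and FOXA1 to between 178 and 198 in T47D and at most 56.1 elsewhere. Of 7 leukocyte and stromal markers, PTPRC, CD3E, PECAM1 and PDGFRB were at most 0.0952 RPKM in every library, while CD68 and COL1A2 carried the list's sum of 62.1 to 73.5 RPKM in SUM1315, against 5.88 to 6.27 in SKBR3 and 1.01 to 1.49 in T47D; the part of this in the SUM1315 levels below was not tested. The hypoxia-induced gene DDIT4 had log2 ratios of hypoxia to normoxia of 3.96, 3.47 and 3.39 in SUM1315, SKBR3 and T47D.

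The windows upstream of the 3 ligand genes are shown because the make-up of the ligands differed between the lines and between the SKBR3 libraries. Each is the 250 bases before the most upstream RefSeq start (GRCh38.p14), read 5′ to 3′ on the gene's strand: chr19:41353923-41354172, minus strand, for TGFB1; chr1:218345086-218345335, plus strand, for TGFB2; and chr14:75983012-75983261, minus strand, for TGFB3. The TGFB1 window lies within the oppositely transcribed gene TMEM91 and the TGFB3 window within IFT43, both on the plus strand in GENCODE 29. Capitals mark the core of the hypoxia response element, ACGTG or GCGTG, and the SMAD box, CAGAC, on either strand.
TGFB1: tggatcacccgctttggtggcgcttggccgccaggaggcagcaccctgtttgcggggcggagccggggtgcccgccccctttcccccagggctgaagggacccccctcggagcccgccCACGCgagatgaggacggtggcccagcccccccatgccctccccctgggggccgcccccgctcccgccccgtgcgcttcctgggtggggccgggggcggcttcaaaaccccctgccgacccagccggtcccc
TGFB2: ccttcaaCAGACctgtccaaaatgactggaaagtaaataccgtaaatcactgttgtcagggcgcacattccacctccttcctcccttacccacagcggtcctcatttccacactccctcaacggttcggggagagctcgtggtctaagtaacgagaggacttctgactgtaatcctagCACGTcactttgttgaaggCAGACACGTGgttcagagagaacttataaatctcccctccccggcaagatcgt
TGFB3: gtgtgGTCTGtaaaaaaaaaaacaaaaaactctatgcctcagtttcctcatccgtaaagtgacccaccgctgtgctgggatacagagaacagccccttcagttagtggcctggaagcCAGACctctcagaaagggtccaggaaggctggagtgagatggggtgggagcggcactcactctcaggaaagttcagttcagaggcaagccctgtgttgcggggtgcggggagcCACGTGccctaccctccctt

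The TGFB1 window held 1 hypoxia core, CACGC on the given strand, at positions -132 to -128 from the start, and no SMAD box. TGFB2 held 3 hypoxia core matches, of which a pair overlapped in CACGTG, and 2 SMAD boxes, one of which shared its last base with that CACGTG. TGFB3 held 2 hypoxia core matches, again overlapping in CACGTG, at positions -20 to -15, and 2 SMAD boxes. Such matches are common: of 35116 windows of the same length over all RefSeq genes, 43.2% held either hypoxia core (18.5% ACGTG, 32.2% GCGTG) and 38.0% a SMAD box. The palindrome GTCTAGAC was in 0.182% of windows and in none of the 9 genes' own. The windows of SMAD4 and of TGFBR1, the latter the most upstream of 8 for that gene, held neither motif. Those of TGFBR2 and SMAD2 held 1 hypoxia core match each and that of SMAD3 held 4, with no SMAD box in any of them. The window of SMAD7 held 2 SMAD boxes and no hypoxia core. It lies within the first exon of the longer GENCODE 29 gene model, in its 5′ untranslated region, and not upstream of that gene. The windows of SMAD2, SMAD3 and SMAD4 likewise lie within the GENCODE 29 spans of their genes. A match describes letters, not binding, and no difference in levels below was tested against these matches.

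TGFB1 is encoded on the minus strand at chr19:41301587-41353911 (GRCh38, as are all gene positions here, from GENCODE 29). Its level was 57.3 RPKM in normoxia and 50.3 in hypoxia in SUM1315, 0.339 and 11.9 in SKBR3, and 1.14 and 1.19 in T47D. Both SUM1315 libraries lay above the other 4, and the SKBR3 and T47D pairs overlapped, because the SKBR3 libraries fell on either side of those of T47D. The plain ratio of hypoxia to normoxia in SKBR3 was 35.0, or 11.3 against 327 reads per kilobase, and 3.26 as the log2 ratio of RPKM + 1, the scale of all log2 ratios that follow. Only 4 of the 10253 genes tested had a higher log2 ratio in that line. The same ratio was -0.18 in SUM1315 and 0.03 in T47D. In SKBR3 it was 4.77 with a pseudocount of 0.1 and 1.66 with one of 5, so its size depended on the pseudocount while its direction did not. It rests on 1 library at each oxygen level.

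TGFB1 overlaps CCDC97 and HNRNPUL1 on one side and TMEM91 and AC011462.1 on the other in GENCODE 29, and no source used here states whether reads were counted by strand, so reads from overlapping genes may have been shared. CCDC97 stood at 20.6 RPKM in normoxia and 33.7 in hypoxia in SKBR3, a log2 ratio of 0.69, and HNRNPUL1 stood at 57.9 and 55.8. B9D2, BCKDHA, EXOSC5 and B3GNT8, whose starts lie 10.3, 43.5, 43.6 and 74.8 kb beyond that of TGFB1, had SKBR3 log2 ratios of 0.47, 0.99, 0.46 and 0.84. B3GNT8 was low there, at 0.144 and 1.04 RPKM. Other neighbours went the other way in SKBR3: DMAC2 (-0.11), CEACAM6 (-0.17), HNRNPUL1 (-0.05), CYP2T1P (-0.26) and EGLN2 (-0.38). B9D2, BCKDHA, EXOSC5, B3GNT8 and CCDC97 had ratios between -0.40 and -0.06 in T47D and between -0.32 and 0.52 in SUM1315. Over the 6 nearest genes on each side at 1 RPKM or more in any library, the ratios ran from -0.38 to 0.99 in SKBR3 (median 0.07), from -0.46 to 0.52 in SUM1315 (median -0.04) and from -0.40 to 0.99 in T47D (median -0.12), and TGFB1 in SKBR3 lay above every one of them. The part that these neighbours' reads had in the TGFB1 value was not tested.

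TGFB2, a ligand prominent in developing tissue that needs the co-receptor betaglycan for efficient receptor binding, lies on the plus strand at chr1:218346235-218444619. It stood at 3.11 RPKM in normoxia and 3.54 in hypoxia in SUM1315, 0.267 and 0.179 in SKBR3, and 0.206 and 0.237 in T47D. The mean of the SUM1315 pair was 14.9 times that of the next line, and SKBR3 and T47D overlapped. Only its 2 SUM1315 libraries reached 1 RPKM, so TGFB2 did not enter the fit across genes. Its log2 ratios were 0.15, -0.10 and 0.04 in SUM1315, SKBR3 and T47D.

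TGFB3, a ligand known for its role in palate and mammary gland development, lies on the minus strand at chr14:75958099-75982991. Its level was 1.28 RPKM in normoxia and 1.84 in hypoxia in SUM1315, 19.0 and 13.8 in SKBR3, and 17.2 and 13.1 in T47D. SUM1315, highest for the other ligands, was lowest here: both of its libraries lay below the other 4, and SKBR3 and T47D overlapped. The log2 ratio was 0.31 in SUM1315, -0.44 in SKBR3 and -0.37 in T47D, with a mean of -0.17 ± 0.17 (SE from the fit, 3 pairs, as for the other means below).

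**Figure D1:**
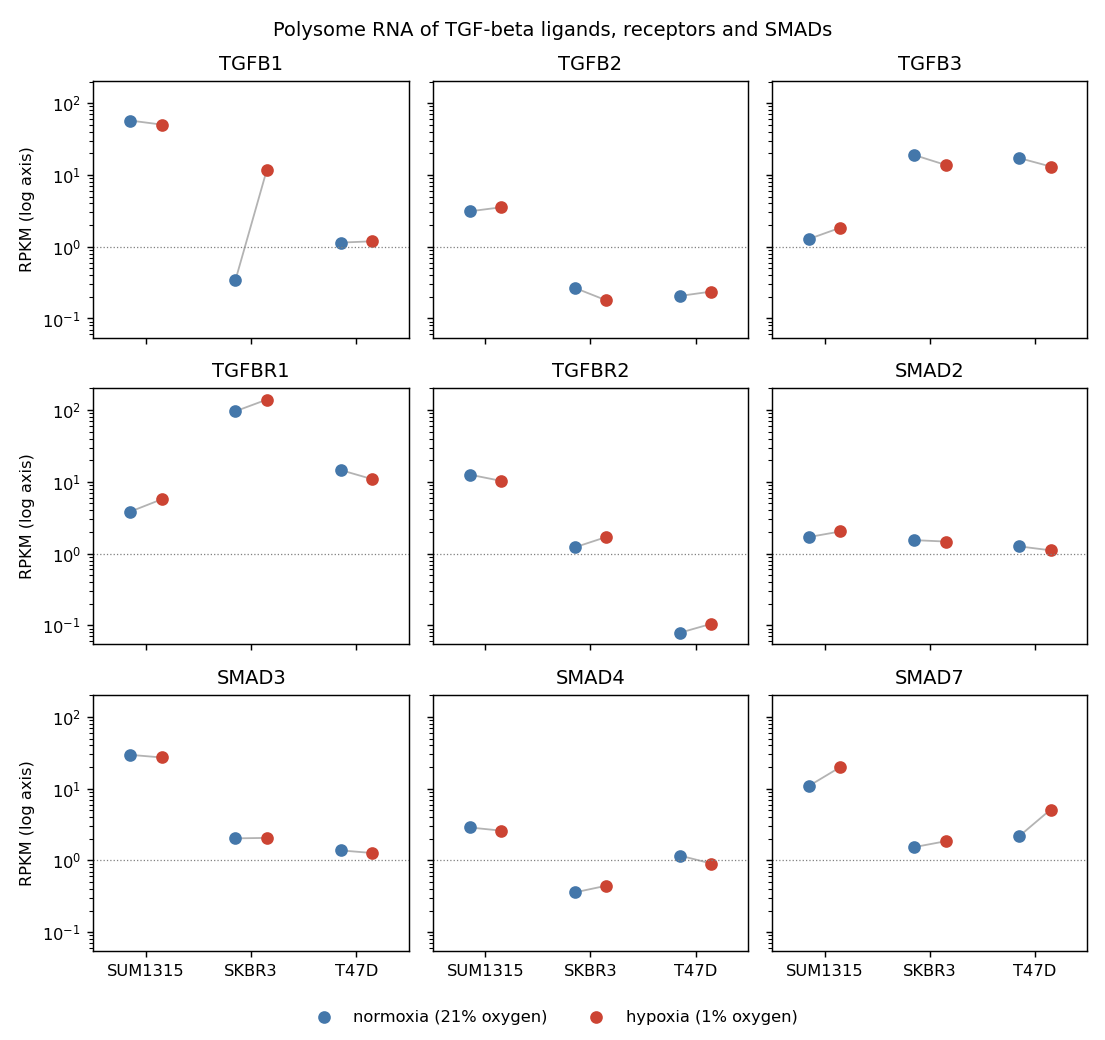
Level in RPKM (log axis) of the 9 genes in each line, with 1 point per library, blue for normoxia (21% oxygen) and red for hypoxia (1% oxygen); grey lines join the libraries of a line and the dotted line marks 1 RPKM. Both SUM1315 points lie above the other 4 for 7 genes and below them for TGFB3 and TGFBR1, and TGFB1 in SKBR3 goes from 0.339 to 11.9.

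As a share of the 3 ligands' summed RPKM, TGFB1 made up 92.9% in normoxia and 90.3% in hypoxia in SUM1315, where the sum was 61.7 and 55.7. TGFB3 made up 92.7% and 90.2% in T47D, where the sum was 18.6 and 14.5. SKBR3 differed between its libraries: TGFB3 held 96.9% of 19.6 RPKM in normoxia, while in hypoxia TGFB3 held 53.3% and TGFB1 46.0% of 25.8 RPKM. TGFB2 was between 0.695% and 6.36% of the sum in every library, with the higher values in SUM1315.

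**Figure D2:**
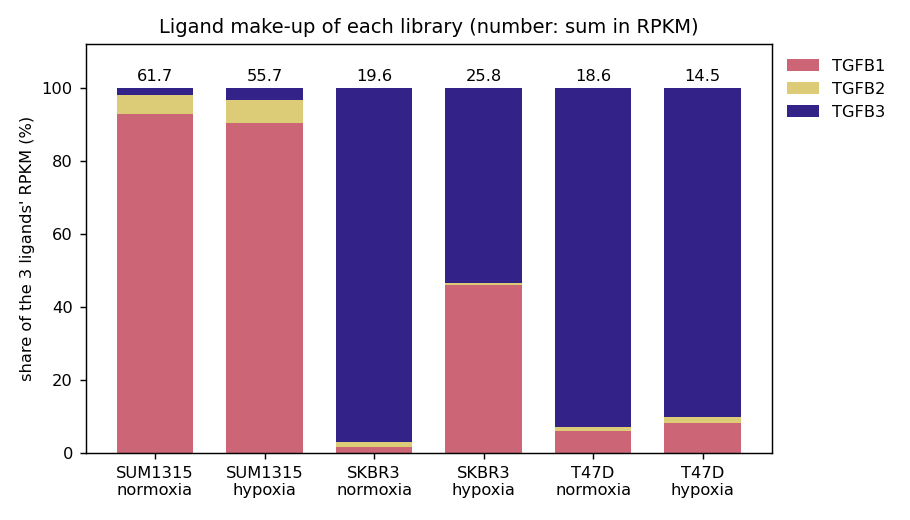
Share (%) of TGFB1, TGFB2 and TGFB3 in the ligands' summed RPKM for each of the 6 libraries, with the sum in RPKM above each bar. TGFB1 fills 90.3% or more of both SUM1315 bars and TGFB3 90.2% or more of both T47D bars, and TGFB1 goes from 1.73% to 46.0% between the SKBR3 libraries.

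Among the receptors, TGFBR1, the type I kinase that phosphorylates SMAD2 and SMAD3, lies on the plus strand at chr9:99104038-99154192. Its level was 3.84 RPKM in normoxia and 5.71 in hypoxia in SUM1315, 96.2 and 140 in SKBR3, and 14.6 and 10.9 in T47D. The 3 lines did not overlap: SKBR3 was 9.25 times T47D, and T47D 2.67 times SUM1315, on the means of the pairs. In SKBR3 the gene ranked 576th of all genes in normoxia and 347th in hypoxia. Its log2 ratio was 0.47 in SUM1315, 0.54 in SKBR3 and -0.39 in T47D, with a mean of 0.20 ± 0.19 (SE).

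The high SKBR3 level of TGFBR1 was set beside the 6 nearest genes on each side at 1 RPKM or more in any library, up to 1249 kb away. TGFBR1 was 3.61 log2 units higher in SKBR3 than in the mean of the other lines, and the neighbours lay between -0.19 (INVS) and 2.85 (CORO2A), with a median of 0.83. In 10 of the 12 the SKBR3 level was above the other lines' mean, and in 7 both SKBR3 libraries were above the other 4. The shares of all genes for which this holds in SKBR3 were not computed, so nothing is read from these counts. The nearest genes, ALG2 and SEC61B, whose starts lie 117.9 and 118.0 kb away, differed by 0.72 and 0.95. Copy number was not analysed here, and its part in these levels was not tested.

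**Figure D3:**
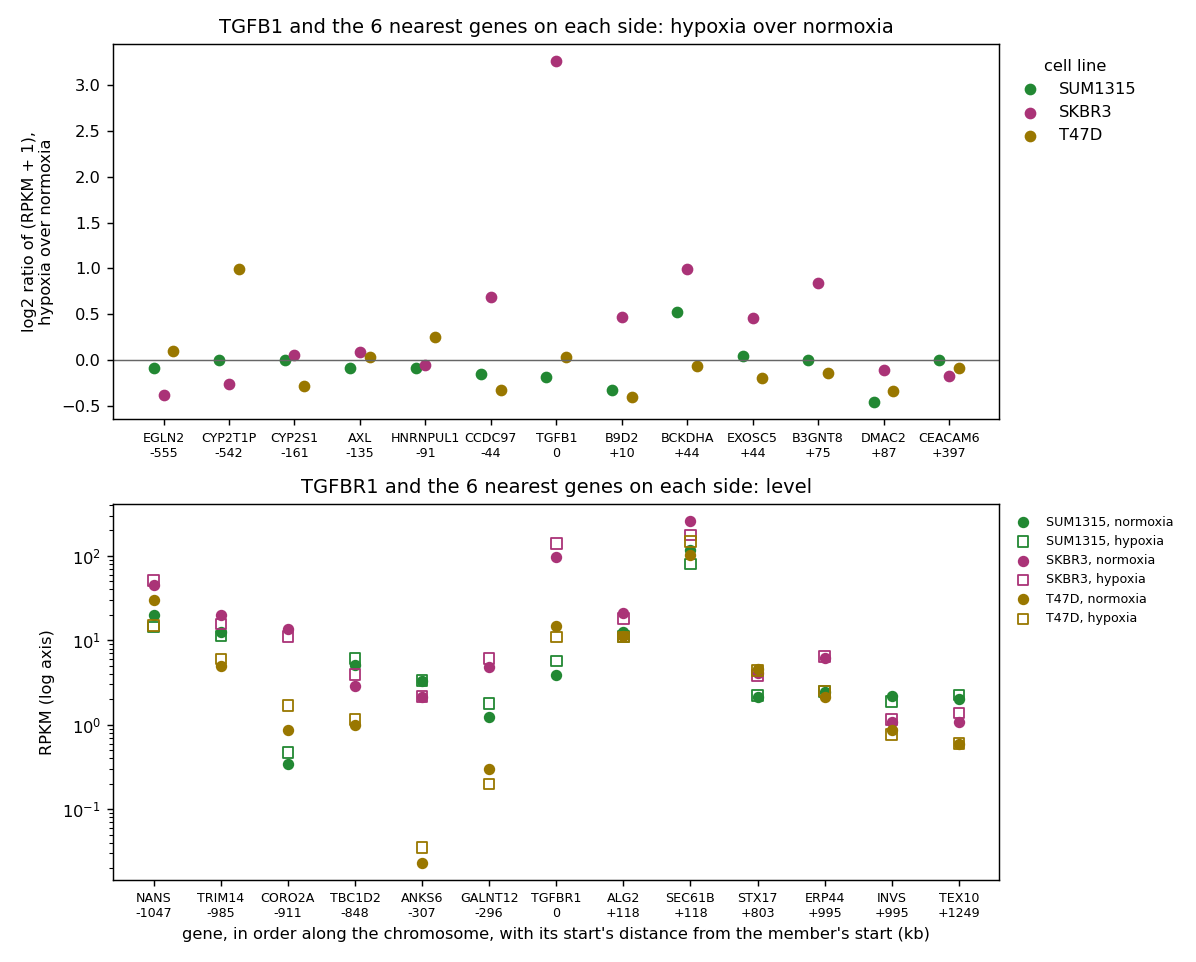
Top, log2 ratio of hypoxia to normoxia (RPKM + 1) in each line for TGFB1 and the 6 nearest genes on each side at 1 RPKM or more in any library; bottom, level in RPKM (log axis) in each library for TGFBR1 and its neighbours chosen in the same way, with starts given as distance in kb. TGFB1 in SKBR3, at 3.26, stands above every neighbour, the highest of which is at 0.99, and TGFBR1 is higher in both SKBR3 libraries, at 96.2 and 140 RPKM, than in the other 4.

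TGFBR2, the type II kinase that binds the ligand, lies on the plus strand at chr3:30606502-30694142. It stood at 12.6 RPKM in normoxia and 10.3 in hypoxia in SUM1315, 1.22 and 1.70 in SKBR3, and 0.0787 and 0.105 in T47D. The 3 lines did not overlap, in the order SUM1315, SKBR3, T47D. The T47D values correspond to 1.90 and 2.33 reads per kilobase, below 3 reads on 1 kb, and so were near the limit of what this depth can show. Log2 ratios were -0.26, 0.28 and 0.03 in the same order, with a mean of 0.02 ± 0.14 (SE).

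SUM1315 thus had the lowest TGFBR1 and the highest TGFBR2 of the 3 lines. TGFBR1 was 0.306 times TGFBR2 in normoxia and 0.552 times in hypoxia in SUM1315, 78.7 and 82.2 times in SKBR3, and 186 and 104 times in T47D, the last pair resting on the low TGFBR2 values just given.

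Of the receptor-activated SMADs, SMAD2 (chr18:47808957-47931146, minus strand) was nearly level over the libraries, at 1.70 RPKM in normoxia and 2.03 in hypoxia in SUM1315, 1.54 and 1.47 in SKBR3, and 1.26 and 1.11 in T47D. SUM1315 lay above the other lines even so, though the highest of the 6 libraries was only 1.83 times the lowest. Log2 ratios were 0.17, -0.04 and -0.10, with a mean of 0.01 ± 0.12 (SE).

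SMAD3 (chr15:67063763-67195195, plus strand), which unlike the main form of SMAD2 binds DNA directly, stood at 29.6 RPKM in normoxia and 27.2 in hypoxia in SUM1315, 2.03 and 2.06 in SKBR3, and 1.38 and 1.27 in T47D. The 3 lines did not overlap. Log2 ratios were -0.12, 0.01 and -0.07, with a mean of -0.06 ± 0.13 (SE). SMAD3 was 17.4 and 13.4 times SMAD2 in the normoxic and hypoxic SUM1315 libraries, and between 1.09 and 1.40 times in the other 4.

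SMAD4 (chr18:51028394-51085045, plus strand), the partner shared by the TGF-beta and BMP branches, stood at 2.88 RPKM in normoxia and 2.60 in hypoxia in SUM1315, 0.358 and 0.444 in SKBR3, and 1.17 and 0.904 in T47D. The lines did not overlap, and SKBR3 was lowest. Log2 ratios were -0.11, 0.09 and -0.19, with a mean of -0.07 ± 0.11 (SE).

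SMAD7 (chr18:48919853-48952052, minus strand), the inhibitory SMAD, stood at 10.9 RPKM in normoxia and 20.0 in hypoxia in SUM1315, 1.53 and 1.85 in SKBR3, and 2.17 and 5.12 in T47D. It was the only one of the 9 genes higher in the hypoxic library of all 3 lines, and the lines did not overlap. Log2 ratios were 0.82, 0.17 and 0.95, with a mean of 0.65 ± 0.17 (SE). In SKBR3, where the ratio was smallest, the levels rest on 51.2 and 51.0 reads per kilobase.

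Of the 8 genes that passed the filter of 1 RPKM in at least 3 libraries, 1 passed an adjusted p of 0.05 in limma's fit with Benjamini-Hochberg adjustment over all 10253 genes tested, and this was SMAD7, in the higher direction. Over all genes tested 6.38% passed, 4.12% higher and 2.26% lower. Since the genes were chosen by their known values, nothing is read from this count. The SMAD7 call was lost in 7 of 10 alternative fits, among them the fit without the T47D pair (mean 0.50). TGFB1, with a mean of 1.04 ± 0.52 (SE from the fit, beside a plain SE of 1.12 over the 3 ratios), passed in only 1 of the 10, the fit without the SUM1315 pair, where the mean of the 2 ratios left, 3.26 and 0.03, was 1.65; without the SKBR3 pair it was -0.08. The prior degrees of freedom were 70.1 in that fit without SUM1315, against 8.02 with all lines, so a gene's own spread weighed little.

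**Figure D4:**
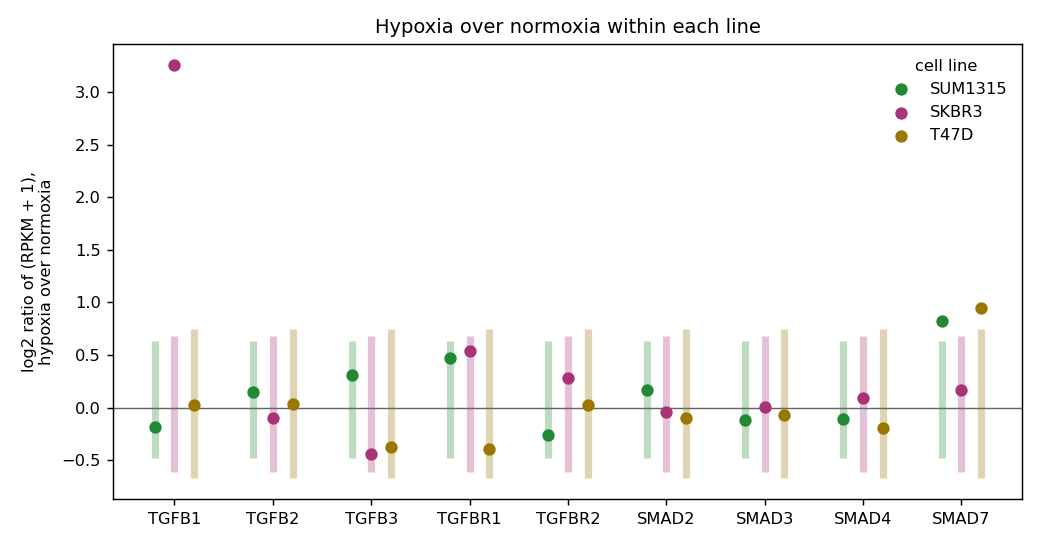
Log2 ratio of hypoxia to normoxia (RPKM + 1) of the 9 genes in each line, 1 point per line; shaded bars span the 5th to 95th percentile over the 10253 genes tested in that line. TGFB1 in SKBR3 (3.26) and SMAD7 in SUM1315 (0.82) and T47D (0.95) lie above the bars, and the other points lie within them.

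Within single lines, a log2 ratio of at least 1 in either direction was reached by 1.53% of genes tested in SUM1315, 2.46% in SKBR3 and 2.98% in T47D, and among these genes by TGFB1 in SKBR3 alone. Of the 9 genes, the hypoxic library was the higher for 5 in SUM1315, for 6 in SKBR3 and for 4 in T47D. The median log2 ratio over all genes tested was between -0.05 and 0.03 in each line, and each of the 27 ratios kept its sign under both other pseudocounts and after rescaling the libraries.

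By line, both SUM1315 libraries lay above the other 4 for 7 of the 9 genes (TGFB1, TGFB2, TGFBR2, SMAD2, SMAD3, SMAD4 and SMAD7) and below them for the other 2 (TGFB3 and TGFBR1). This pattern is common in these data. Of all genes at 1 RPKM in any library it held for 35.7% (above) and 22.5% (below), and of those tested for 32.9% and 23.5%, against 6 and 2 of the 8 tested here. With 1 culture for each line and oxygen level, no test of the lines was made. The share of all genes whose 3 lines did not overlap was not computed. Nor was the share higher in the hypoxic library of all 3 lines, so nothing is read from either trait.

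For TGFB1, TGFB2, TGFBR2 and SMAD3, the genes with the most similar profile over the 6 libraries were found by Pearson's r of log2(RPKM + 1) among genes reaching 10 RPKM. SMAD3 was nearest to GSTP1 (r = 0.9999), SMURF2 (0.9990) and USP14 (0.9990). SMURF2, a ubiquitin ligase that binds SMADs, stood at 39.3 and 38.6 RPKM in SUM1315 and between 2.51 and 3.80 elsewhere. TGFBR2 was nearest to CTSL (0.9996), TRMT1 (0.9978) and HARS2 (0.9973), and TGFB2 to FGFR1 (0.9994) and TXLNA (0.9993). TGFB1 was nearest to SUCLG2 (0.9902), RAPGEF1 (0.9887) and ST13 (0.9884), whose levels in SKBR3 went from 7.07 to 13.7, 14.1 to 27.9 and 25.8 to 39.2 RPKM between normoxia and hypoxia. An r of 0.99 or more was reached by 120 genes for SMAD3, 156 for TGFB2, 29 for TGFBR2 and 1 for TGFB1. These values describe 6 libraries from 3 lines that share their line and depth.

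The other genes of the pathway were described from 5 lists, 123 genes in all, of which 80 were tested. Of these 6 rose (7.50%) and 1 fell (1.25%) with hypoxia at an adjusted p under 0.05 in limma's paired fit, and their median fold change was 0.09 log2 units beside -0.01 over all genes tested. Both shares stand beside the 4.12% higher and 2.26% lower given above for all genes. An unadjusted p under 0.05 in limma was reached by 25 of the 80, beside 2692 of the 10253 genes tested. Counts at this level in the single lists below stand beside that share, and nothing is read from them. Without the pairing by line 0 of the 80 passed in limma, and 3 had an unadjusted p under 0.05.

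Among genes that hold the ligands latent or release them, 8 of 20 were tested and none passed in limma (1 had an unadjusted p under 0.05), with a median of -0.02. The highest were LTBP1 (0.32 ± 0.12 SE) and LTBP4 (0.20 ± 0.15), which tether latent ligand to the matrix, and the lowest LTBP3 (-0.18 ± 0.15) and the integrin subunit ITGB5 (-0.11 ± 0.16). In this list 5 genes reached 1 RPKM in 1 line only, 4 of them in SUM1315; of the 2736 such genes in the table, SUM1315 held 50.7%, SKBR3 20.5% and T47D 28.8%. The highest of them by their highest library were all in SUM1315. These were the matrix proteases MMP14 (51.7 RPKM in normoxia and 47 in hypoxia) and MMP2 (12.1 and 10.4), and LTBP2 (3.58 and 4.71). Such genes reached the level only through the line where they were high, so nothing is read from that line or from their count.

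Of 16 receptor partners 12 were tested, with a median of 0.06. At an unadjusted p under 0.05 in limma, 2 were higher and 3 lower. TGFBRAP1, which binds the receptors and SMAD4, fell by 0.78 log2 units (SE 0.14, adjusted p = 0.0149 in limma). Its level was 14.6 RPKM in normoxia and 7.36 in hypoxia in SUM1315, 6.90 and 4.42 in SKBR3, and 6.76 and 3.19 in T47D, lower in the hypoxic library of all 3 lines, and the call was lost without the T47D pair (mean -0.72). The kinase MAP3K7 was next lowest at -0.47 ± 0.14, which did not pass. The highest was BAMBI, a pseudoreceptor that inhibits signalling, at 0.53 ± 0.24, with 45.1 RPKM in normoxia and 109 in hypoxia in T47D, 37.3 and 56.5 in SKBR3, and 0.733 and 0.467 in SUM1315; HGS followed at 0.38 ± 0.14. Of the 14 receptor partners at 1 RPKM in any library, both SUM1315 libraries lay below the other 4 in 2, BAMBI and FKBP1A. They lay above the other 4 in 6, and the shares of all such genes were 22.5% below and 35.7% above. Genes at 1 RPKM in 1 line only were CD109 and TRAF6, both through the hypoxic SUM1315 library. CD109 stood at 0.655 RPKM in normoxia and 1.38 in hypoxia in SUM1315 and at most 0.129 elsewhere. TRAF6 stood at 0.867 and 1.27 in SUM1315 and at 0.882 and 0.996 in T47D, so these lines overlapped.

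Of 26 regulators of the SMADs 23 were tested and none passed in limma (3 had an unadjusted p under 0.05, all higher), with a median of 0.08. The deubiquitinase USP11 was highest, at 0.50 ± 0.13 (adjusted p = 0.0501 in limma), followed by the ubiquitin ligase RNF111 at 0.42 ± 0.12, and the repressor SKI (-0.22 ± 0.14) and the phosphatase PPM1A (-0.09 ± 0.13) were lowest. SMAD6, the other inhibitory SMAD, had a mean of 0.25 ± 0.13, beside 0.65 ± 0.17 for SMAD7, and was named for that comparison after its values were seen.

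In the BMP and activin branch 13 of 24 genes were tested and none passed in limma (4 had an unadjusted p under 0.05, all higher), with a median of 0.11. FSTL3, a secreted antagonist of activin, was highest at 0.89 ± 0.23 (adjusted p = 0.0501 in limma), with 5.86 RPKM in normoxia and 21.4 in hypoxia in SKBR3, 20.1 and 29.8 in SUM1315, and 14.9 and 20.1 in T47D. BMP4 followed at 0.72 ± 0.26, and FSTL1 (-0.21 ± 0.15) and SMAD1 (-0.20 ± 0.12) were lowest.

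Of 42 genes known as TGF-beta targets 27 were tested, with a median of 0.16. Of these 6 passed the threshold and all 6 rose, beside 4.12% higher and 2.26% lower of all genes tested. At an unadjusted p under 0.05 in limma, 10 were higher and 2 lower, beside 2692 of 10253 over all genes in either direction. The list was written with earlier results of these data known, so nothing is read from these counts. ANGPTL4 rose by 3.21 ± 0.24 (SE; adjusted p = 0.000108 in limma) and BHLHE40 by 1.99 ± 0.21 (0.00104); both are also known targets of the hypoxia-inducible factors. The other 4 that rose were GADD45B (1.33 ± 0.18, adjusted p = 0.00485), a stress-induced growth arrest gene, JUNB (0.98 ± 0.20, 0.0221), MYC (0.89 ± 0.19, 0.0266) and ID2 (0.88 ± 0.21, 0.0364), all in the same limma fit. MYC and ID2 are known as genes that the pathway represses in epithelial cells, and GADD45B and JUNB as genes that it induces. As the list holds genes of both kinds, its median has no direction with respect to the pathway. The calls of JUNB and MYC were lost without the SUM1315 pair (means 0.70 and 0.66), those of MYC and ID2 without T47D (0.87 and 0.70), and that of ID2 also without SKBR3 (0.72). Over the 10 alternative fits, ID2 passed in 3, MYC in 4, JUNB in 5, TGFBRAP1 in 7, and ANGPTL4, BHLHE40 and GADD45B in 8 each. The lowest were CDC25A (-0.56 ± 0.16) and ID3 (-0.43 ± 0.23). Without the 4 tested genes that are also hypoxia-inducible factor targets, the median was 0.04.

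Of the 40 target genes at 1 RPKM in any library, both SUM1315 libraries were above the other 4 in 22 and below in 7, beside the 35.7% and 22.5% of all such genes. Target genes at 1 RPKM in 1 line only numbered 13, of which 9 did so in SUM1315, 3 in SKBR3 and a single one in T47D, beside the 50.7%, 20.5% and 28.8% of all such genes. These genes reached the level only through the line where they were high, so nothing is read from the count. The highest by their highest library were the epithelial cadherin CDH1 (6.12 RPKM in normoxia and 10.8 in hypoxia, in T47D), HMGA2 (4.42 and 4.91, in SUM1315) and LTBP2.

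**Figure D5:**
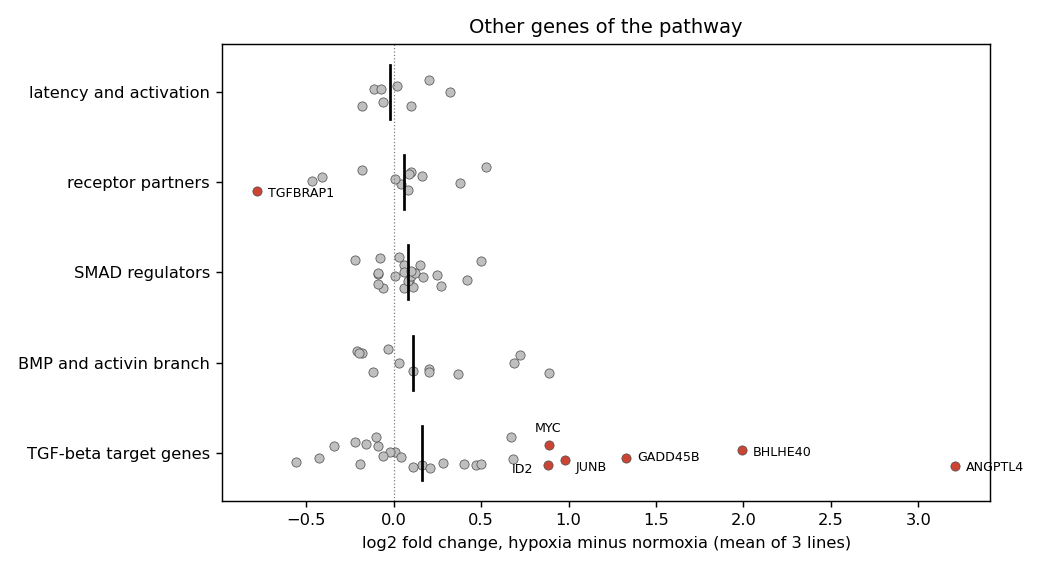
Log2 fold change, hypoxia minus normoxia (mean of 3 lines), of the tested genes of 5 pathway lists, 1 point per gene with arbitrary vertical spread; red points passed an adjusted p of 0.05 in limma, grey points did not, and black bars are list medians. The 6 red target genes lie between 0.88 and 3.21, and TGFBRAP1 lies at -0.78.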

How the data were processed

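The deposited table holds RPKM for 30726 genes and 6 libraries, with no counts; the authors' unit was read from the values, whose low steps scale with transcript length. Per the submitters' processing notes, Trimmomatic, HISAT2, SAMtools and Partek were used with GRCh38 (hg38); for annotation, strand setting and multi-mapping the sources used here give nothing. Between 60.7% and 65.7% of values of low single-transcript genes were whole reads within 0.02, too few for a count test.

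The 9 genes and the lists were chosen with earlier results of these data known. Genes reaching 1 RPKM in 3 or more libraries were fitted with limma 3.58.1 (R 4.3.3; moderated, with mean-variance trend) on log2(RPKM + 1), with cell line as a block, two-sided, Benjamini-Hochberg adjusted over all genes; a pseudocount of 1 understates changes of low genes. The labels pair the libraries by line, and deviations from the oxygen group means correlated at 0.969, 0.936 and 0.941 in SUM1315, SKBR3 and T47D. No line was repeated. The SEs are moderated by limma (prior degrees of freedom 8.02 against residual 2), so they draw mostly on the spread of other genes: the plain SE over the 3 ratios was 1.12 for TGFB1 (0.52 in the fit) and 0.04 for SMAD3 (0.13). The fit was run on simulated data, with spreads taken from the fit itself and 200 genes changed equally in every line. That simulation cannot speak to responses that differ between lines.

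Named were the 9 genes, every called list gene, the 2 highest and 2 lowest tested of each list, the 3 highest of those at 1 RPKM in 1 line only (latency, partner and target lists), and the 3 most similar profiles, 1 of which is not reported here. The neighbours and the second background over genes at 1 RPKM in any library were chosen after seeing the data. GREM1, of the BMP list, was not analysed here. Alternatives changed the pseudocount, filter, block, scaling, trend and lines.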

Additional observations from a re-analysis of the deposited data

Results flagged for a closer look

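The log2 ratio of hypoxia to normoxia of TGFB1 was 3.45 higher in SKBR3 than in SUM1315, at 3.26 against -0.18; it is listed for the opposite signs, and the ratio in SKBR3 makes up nearly all of the gap. Each line gave 1 pair of libraries, so this difference was not tested.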

How the results depend on the processing

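With all genes tested, 422 were called higher and 232 lower by limma. With a pseudocount of 5 these were 171 and 72, with 1 RPKM in at least 2 libraries 209 and 67, and without each line in turn from 179 to 552 and from 53 to 271, the lowest without T47D. With no replicate block, which ignores the pairing by line, 0 were called in either direction (68 of 10253 at an unadjusted p under 0.05 in limma), and with no filter on low values also 0 (2715 of 27552 unadjusted). Pathway genes called higher, 6 in all, were 3 with a pseudocount of 5, 3 with at least 2 libraries, 0 with no replicate block (3 of 80 at an unadjusted p under 0.05 in limma), 0 with no filter (15 of 122 unadjusted), and 6 to 8 without each line in turn. The 1 pathway gene called lower was 0 with no replicate block or no filter, and 0 to 2 without each line. Of the 9 genes, 1 was called; 0 were called with a pseudocount of 5, at least 2 libraries, no replicate block, no filter, rescaled libraries or no trend, and 0 to 2 without each line. The cause of these changes was not tested. No mean that had been called changed sign. Depth limits TGFBR2 in T47D, near 3 reads per kilobase.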
